A study of Mus musculus with 4 samples.

Results

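Rbms3 and Alk are long genes in which cytosines outside the CG context carried less methylation in the somatosensory cortex of Nsd1 conditional knockout mice than in control cortex at many separate places. Both genes were chosen by their number of CHH regions with less methylation in the knockout, CHH being a cytosine with no G at either of the next positions. That count therefore describes them and supports nothing further, and no test was made on any measure of the same contrast. The members are the listed differentially methylated regions of any context that overlap either gene body or the 50 kb on each side of it. They number 248 of 101350 regions in the authors' deposited table, with 135 at Rbms3 and 113 at Alk.

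RBMS3 is an RNA-binding protein of a small family that binds single-stranded nucleic acid and takes part in the control of mRNA. ALK is a receptor tyrosine kinase related to the insulin receptor. It is made mainly in the developing nervous system and is best known from the fusion proteins and mutations that drive some lymphomas and neuroblastomas. Methylation outside CG is rare in most cells but builds up in neurons after birth, where DNMT3A places it. NSD1 is a histone methyltransferase that methylates lysine H3K36, a mark that DNMT3A can bind.

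Both groups were mice aged 2.5 months, and DNA of their somatosensory cortex was read by whole-genome bisulfite sequencing, in which unmethylated cytosines are converted and read as T. The knockout, labelled Nsd1Nex-cKO (cKO, n = 2 libraries), removes Nsd1 under the Nex driver, known to be active in excitatory cortical neurons. The control is labelled Nsd1fl/+ (n = 2 libraries), with no driver named, and carries 1 floxed allele by its name. The labels number the libraries of a group but do not say whether they came from separate animals. The tissue was not sorted, so each level averages over cell types in which Nex acts and cell types in which it does not, and a change in the mix of cells and a change within cells cannot be told apart. The table gives only the authors' mean level of each group, deposited as a fraction and printed here as a percent. Values per library and coverage were not in it. Depth is therefore unknown, and no difference given here can be set against a spread between libraries. Only called regions are listed, so a stretch with no region has no measured value here. Within Nsd1 the table lists 5 CHH and 2 CHG regions, all higher in cKO, and 1 CG region lower in cKO, which says nothing of the deletion itself.

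The promoters are shown because no listed region overlaps any of them: 300 bases each, taken from RefSeq (build GRCm38.p6, equal to mm10), on the minus strand, with CG dinucleotides in capitals. Rbms3 has 2 of them in RefSeq, at chr9:117629864-117630163 for its long transcripts and at chr9:117252434-117252733 for its shorter ones. The Alk promoter lies at chr17:72604258-72604557.
Rbms3, long transcripts: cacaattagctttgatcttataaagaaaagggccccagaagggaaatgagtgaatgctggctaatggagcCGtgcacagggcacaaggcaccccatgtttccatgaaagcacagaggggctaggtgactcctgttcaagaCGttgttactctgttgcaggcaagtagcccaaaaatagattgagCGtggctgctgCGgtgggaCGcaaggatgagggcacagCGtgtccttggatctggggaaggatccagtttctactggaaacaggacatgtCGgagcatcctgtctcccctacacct
Rbms3, shorter transcripts: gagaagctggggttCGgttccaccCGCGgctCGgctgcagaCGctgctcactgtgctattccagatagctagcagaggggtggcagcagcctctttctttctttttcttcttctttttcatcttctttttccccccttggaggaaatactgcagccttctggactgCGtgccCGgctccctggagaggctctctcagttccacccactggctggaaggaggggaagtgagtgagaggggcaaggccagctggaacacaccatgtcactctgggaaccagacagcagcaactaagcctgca
Alk: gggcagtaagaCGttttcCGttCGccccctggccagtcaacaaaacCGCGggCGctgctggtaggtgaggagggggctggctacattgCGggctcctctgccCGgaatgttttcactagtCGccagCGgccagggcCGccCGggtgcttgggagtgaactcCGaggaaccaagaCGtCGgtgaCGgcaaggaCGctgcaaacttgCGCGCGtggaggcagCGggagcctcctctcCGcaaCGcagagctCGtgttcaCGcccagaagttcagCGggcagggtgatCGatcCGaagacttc
The Rbms3 promoters hold 7 CG dinucleotides each, the median of all 32851 promoters of that length, and the Alk promoter holds 28, a number that 14.2% of promoters reach. The nearest listed region lay 6.82 kb from the long Rbms3 promoter, 6.06 kb from the shorter one and 5.27 kb from that of Alk. Of all promoters of this length, 2.74% overlapped a listed region.

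At Rbms3 the change outside CG went almost wholly 1 way. Of 111 CHH regions in the window, 110 were lower in cKO and 1 was higher. Among all listed CHH regions, 84% were lower in cKO. A gene picked for its many CHH losses leans this way by that choice. The 3 other genes with the most CHH losses did so too. Their windows held 90 lower and 0 higher at Prdm16, 91 and 1 at Wwox, and 77 and 0 at Lrmda. Inside the gene body itself (chromosome 9, 116572746 to 117629913, 1057168 bp) the authors' deposited table lists 103 CHH regions lower and 1 higher, the largest number of lower ones in any of 21792 protein-coding genes. The flank on the 5' side held 3 CHH regions and the flank on the 3' side 4, all lower in cKO.

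Levels at Rbms3 were low in control and close to 0 in cKO. In the 110 regions lower in cKO, the control level ran from 3.14% to 14.5% and was 5.82% in the middle region. In cKO it lay between 0.271% and 4.09%, with 1.11% in the middle region. The middle region differed by -4.64 percentage points (quartiles -5.65 and -3.96), and kept 19.9% of its control level. In 86 of the 110 (78.2%) the cKO mean was below 2%, against 87.7% of all CHH regions lower in cKO. Over the 5496 CHH cytosines of these regions the weighted mean was 6.58% in control and 1.43% in cKO. The lowest control level lay below the highest cKO level, so the 2 sets of levels overlapped across regions, although each region on its own was lower.

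Alk (chromosome 17, 71868988 to 72604702, 735715 bp) held 72 CHH regions in its body, and every one of them was lower in cKO. With the flanks there were 82, of which 76 were lower and 6 higher. The 4 regions on the 5' flank were lower, and the 6 on the 3' flank, all of them inside the next gene, were higher. In the 76 regions lower in cKO the control level ran from 3.50% to 11.4% (median 5.78%) and the cKO level from 0.175% to 3.06% (median 1.23%). The middle region differed by -4.53 points (quartiles -5.14 and -4.05) and kept 21.9% of its control level. Over 3972 cytosines the weighted mean was 6.17% in control and 1.34% in cKO. Alk stood at place 5 among protein-coding genes by the number of such regions.

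**Figure D1:**
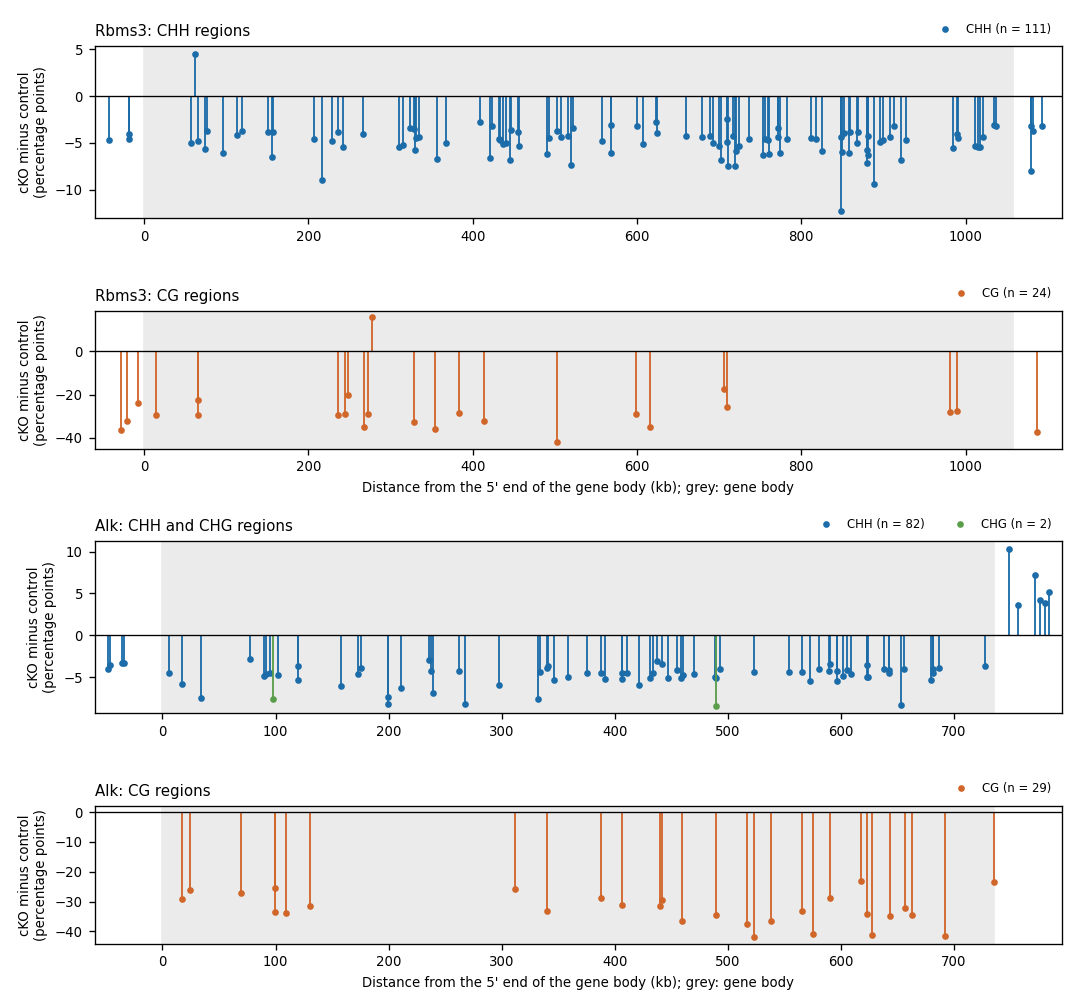
Difference in methylation level, cKO minus control in percentage points, for each listed region against its distance from the 5' end of the gene body in kb; each line with a point is 1 region, and grey marks the gene body. The CHH regions of both bodies point down except for 1 in Rbms3, and the 6 that point up at the right end of Alk lie beyond its 3' end.

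The levels themselves were close to those of CHH losses elsewhere in the table. Over all 45012 CHH regions lower in cKO, the middle level was 5.52% for control and 1.01% for cKO, the median difference -4.43 points, and 18.7% of the control level was kept. The regions were of like size too, at a median of 130.5 bp in Rbms3, 150.5 bp in Alk and 127 bp over all, with medians of 46.5, 51.5 and 46 cytosines. The genes had been selected on the number of regions, and the median loss per region was near that of the table as a whole. Control levels of at least 10% were reached by 9 of 110 regions in Rbms3 and 4 of 76 in Alk, against 3.76% of all CHH regions lower in cKO. Regions with a higher control level also kept a higher cKO level, with a Spearman rho of 0.839 over the 110 regions of Rbms3, 0.827 over the 76 of Alk and 0.785 over all 45012. The points share their libraries and a common threshold on the difference, so these values only describe the lists.

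**Figure D2:**
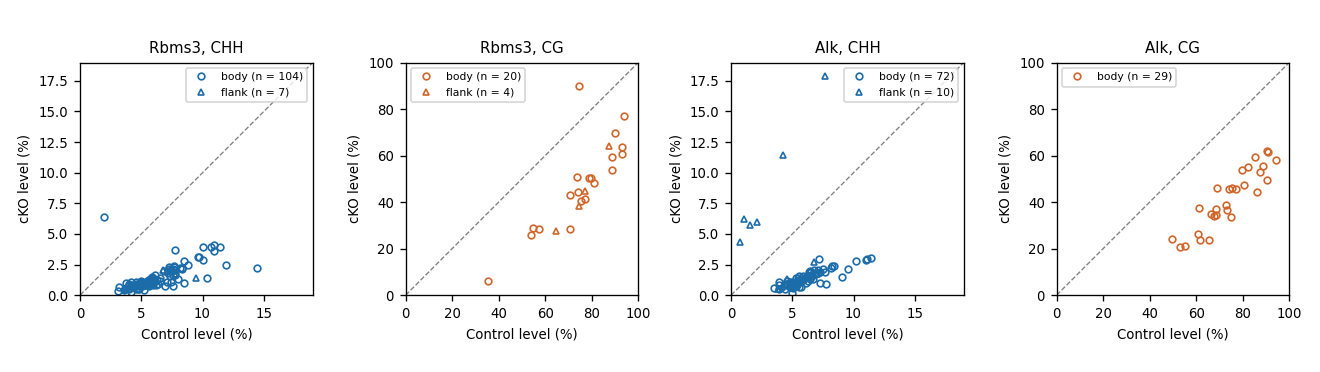
Mean level in cKO against mean level in control, in percent, for each CHH and CG region of the windows; circles lie in the gene body, triangles in the flanks, and the dashed line marks equal levels. CHH regions of the bodies sit at 4.09% or less in cKO apart from 1 at 6.41% in Rbms3, and the 6 triangles above the line at Alk are the regions in its neighbour Clip4.

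The strongest regions, by the area statistic of the authors' deposited table, which sums the evidence over the cytosines of a region, were spread over both genes. In Rbms3 the first was at chromosome 9, 117413632 to 117414035, with 136 cytosines, at 10.3% in control and 1.38% in cKO. It stood at place 411 among all CHH regions lower in cKO. The second (116855243 to 116855622, 122 cytosines) went from 7.75% in control to 1.67%, and the next (117122776 to 117123109, 124 cytosines) from 5.55% to 1.15%. These 3 lay 216.1 kb, 774.5 kb and 507.0 kb from the 5' end, so none was near either start. The largest difference in the gene, -12.2 points, was at 116781722 to 116781884 over 43 cytosines, from 14.5% to 2.21%.

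In Alk the strongest region lay at chromosome 17, 72145704 to 72146097, with 139 cytosines, at 6.44% in control and 1.31% in cKO. It stood at place 477 among all CHH regions lower in cKO. The second, at 72014758 to 72015031 with 96 cytosines, went from 4.95% to 0.712%. The next by size in the window is not in Alk but in Clip4, and was higher in cKO. These Alk regions lay 458.8 kb and 589.8 kb from the 5' end, in the 3' part of the gene.

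CHH regions were scattered and not packed into 1 block. In the Rbms3 window the gap between neighbouring CHH regions of either direction had a median of 5.43 kb (quartiles 2.17 and 11.1 kb), with the shortest at 0.06 kb. The longest gap, 74.8 kb, spanned the start of the long transcripts, from 117573044 to 117647881. In Alk the median was 5.95 kb (quartiles 2.95 and 14.0 kb) and the longest gap 43.3 kb, from 72527504 to 72570818. Gaps under 1 kb joined 29 Rbms3 regions into 13 groups, of which the largest held 4 regions within 1.30 kb (116748708 to 116750012). Its control levels started at 5.43% and its cKO levels ran from 1.04% to 2.91%. In Alk 19 regions fell into 9 such groups, the largest with 3 regions within 1.38 kb (71980569 to 71981951), at 4.41% to 5.71% in control and 0.67% to 0.88% in cKO. Most regions of both genes thus stood alone at this distance.

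CHH losses were more numerous in the 3' part of Rbms3 than in its 5' part, without a steady rise in finer bins. In 10 equal bins from the start on, the body held 5, 6, 7, 9, 16, 7, 14, 11, 19 and 9. Cut into 5 equal parts of 211.4 kb, the body held 11, 16, 23, 25 and 28 regions lower in cKO from the start on. Their median control levels stayed between 5.55% and 6.60% in all 5 parts, and their median cKO levels between 0.94% and 1.34%. Over the 5 parts the regions thus became more frequent, while these median levels showed no steady change. Upstream of the second start, in the 377.4 kb that only the long transcripts cover, there were 25 (6.62 per 100 kb), against 78 (11.5 per 100 kb) in the 679.7 kb downstream of it. The same 5 parts of the Alk body, 147.1 kb each, held 10, 11, 17, 14 and 20, with median control levels from 5.41% to 7.25%. Alk thus had its fewest regions in the first part and its most in the last, without a steady rise over these 5 parts.

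Methylation in the CG context was lower too, at far fewer places. The Rbms3 window held 24 CG regions, of which 23 were lower in cKO and 1 higher, and the Alk window held 29, all lower. Among all listed CG regions 94.4% were lower. In the 23 Rbms3 regions the control level ran from 35.2% to 94.0% (median 77.2%) and the cKO level from 6.26% to 76.8% (median 44.8%), with a median difference of -29.4 points. The 29 Alk regions had 49.5% to 94.5% in control (median 74.1%) and 20.5% to 61.8% in cKO (median 44.5%), with a median difference of -33.2 points. Across regions these levels overlapped between groups, while the middle CG region kept 60.2% of its control level in Rbms3 and 54.7% in Alk. CG losses thus left more of the control level than the CHH losses of the same genes. The same held over all listed losses, where the middle region kept 56.5% for CG and 18.7% for CHH. This contrast depends in part on which regions are listed. The smallest listed difference was 2.00 points for CHH and 3.67 points for CG, so from low CHH levels only large relative losses can appear. The conversion rate is unknown, so how much of the low cKO CHH level is unconverted cytosine cannot be told.

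Per length the 2 genes had nearly the same rate of CHH losses and different rates of CG losses. Rbms3 held 9.74 CHH regions lower in cKO per 100 kb of body and Alk 9.79. For CG losses the rates were 1.80 and 3.94 per 100 kb. Chromosome 9 as a whole carried 2.27 CHH and 2.11 CG losses per 100 kb, and chromosome 17 1.97 and 1.83. Rbms3 was therefore above its chromosome in CHH alone, and Alk in both contexts.

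The strongest CG regions were again taken by area statistic. In the authors' deposited table Rbms3 led with 117030975 to 117031381 (19 CpGs, 57.3% in control and 28.4% in cKO), followed by 117127082 to 117127232 (12 CpGs, 70.7% and 28.6%) and 117301122 to 117301306 (14 CpGs, 80.9% and 48.0%). The second of these had the largest CG difference of the window, -42.0 points. A CpG stretch at 117357018 to 117357276 was nearly emptied, from 35.2% to 6.26% over 14 CpGs. Alk led with 72087160 to 72087555 (24 CpGs, 61.5% and 23.9%), at place 1389 among all CG regions lower in cKO. Next came 72587189 to 72587303 (12 CpGs, 90.7% and 61.5%), 17.5 kb from the 5' end, and 71947528 to 71947696 (13 CpGs, 52.8% and 20.5%).

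CHH losses in Rbms3 lay far from CG regions. The median distance from a CHH region lower in cKO to the nearest CG region of either direction was 20.6 kb in Rbms3 (quartiles 6.90 and 57.1 kb) and 6.60 kb in Alk (quartiles 0.762 and 12.6 kb). Over all CHH regions lower in cKO it was 7.58 kb. Within 1 kb of a CG region lay 11 of the 110 CHH losses of Rbms3, 21 of the 76 of Alk (27.6%) and 21.4% of all. More than 20 kb away lay 55 of 110, 15 of 76 (19.7%) and 30.0% of all. Alk was thus near the whole table in this respect, and Rbms3 had more distant regions. Few CG regions in a window by themselves lengthen this distance, and the Rbms3 window held 24. A single stretch of 270.1 kb without a CG region held 36 of its 110 CHH losses. With only the regions at or above the median absolute area statistic of their context, the distances grew to 81.3 kb in Rbms3 and 46.7 kb in Alk, and the spacings of CHH regions to 8.41 kb and 13.0 kb.

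**Figure D3:**
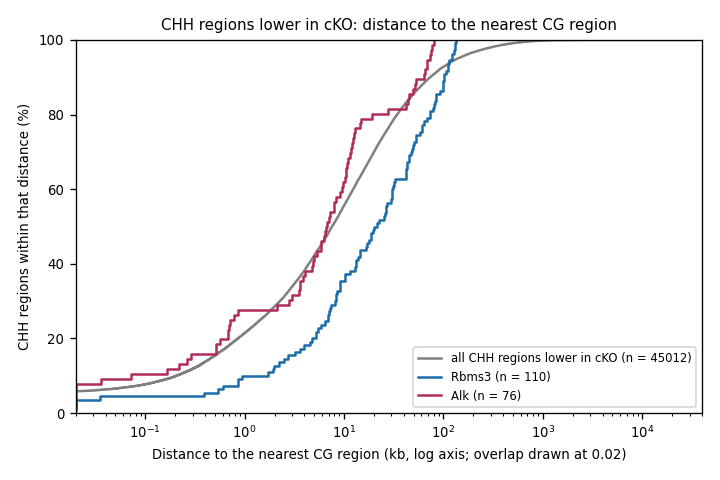
Share of CHH regions lower in cKO, in percent, that lie within a given distance of the nearest CG region, in kb on a log axis, for Rbms3 (110 regions), Alk (76) and all 45012. The Rbms3 line crosses the middle of its regions at 20.6 kb, against 6.60 kb for Alk and 7.58 kb for all.

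The longest stretch of Rbms3 without a CG region ran for 270.1 kb, from 116649642 to 116919788, and held 36 CHH regions, all lower in cKO. Their control levels ran from 3.67% to 14.5% (median 5.94%) and their cKO levels from 0.49% to 3.96% (median 1.22%). In Alk the longest such stretch, 181.7 kb from 72292646 to 72474387, held 12 CHH regions, all lower, whose median level was 7.50% for control and 1.73% for cKO. The median control level of the stretch was near that of all 110 regions in Rbms3 (5.82%) and above that of all 76 in Alk (5.78%). Since the table lists only called regions, it does not give the CG level there.

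Seen from the CG side the 2 contexts lay closer together. The 23 CG losses of Rbms3 had a CHH loss at a median of 2.20 kb and the 29 of Alk at 2.13 kb, against 7.67 kb for all CG regions lower in cKO. Both genes were chosen for many CHH losses, which by itself puts a CHH loss nearer to any CG region in them. Regions of both contexts shared bases at 3 places in Rbms3 and 6 in Alk, which is 2.73% and 7.89% of their CHH losses against 5.39% of all 45012. At 117564488 to 117564663 in Rbms3, CHH methylation was 5.77% in control and 0.95% in cKO, and the CG region inside it had 88.7% and 59.3%. At 117301160 to 117301277 CHH was at 4.03% and 0.49%, inside a CG region at 80.9% and 48.0%. In Alk the largest shared stretch, 132 bp at 72081475 to 72081606, had CHH at 5.26% in control and 0.85% in cKO and CG at 65.7% and 23.7%. All 9 pairs were lower in cKO in both contexts.

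CHG regions were listed in Alk alone, where 2 were lower in cKO. Among all listed CHG regions 75.6% were lower. The first (72115385 to 72115552, 29 cytosines) went from 10.1% in control to 1.76% in cKO. It overlaps a CG region (72115182 to 72115536) that went from 60.8% to 26.4%, which in turn overlaps a CHH region (72115053 to 72115200) that went from 6.90% to 1.79%. All 3 contexts were thus lower within 500 bp. The second CHG region (72507089 to 72507155, 13 cytosines) went from 8.70% to 1.16%.

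Inside the 2 gene bodies only 2 regions were higher in cKO, both in Rbms3. The CHH region at 117568206 to 117568311 (33 cytosines, 61.7 kb from the 5' end) had 1.91% in control and 6.41% in cKO. Its neighbours on both sides, at 117564488 to 117564663 and 117572950 to 117573044, were lower, the second going from 6.13% to 1.16%. The CG region at 117352290 to 117352364 (7 CpGs) had 74.4% in control and 90.1% in cKO. It overlaps the long non-coding RNA gene Gm39451, which also held 2 CHH regions lower in cKO. Of the other transcripts within the Rbms3 window, Gm39452 held 4 CHH regions lower in cKO, Gm39449 held 1, and Gm17396 and the pseudogene Gm18489 held none.

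The direction changed between Alk and its 3' neighbour Clip4, a gene of the CAP-Gly linker family of microtubule-binding proteins. The 2 gene bodies are 4.78 kb apart. Clip4 held 7 CHH regions higher in cKO, 6 of them in the window, and 2 lower at its other end. Its 7 gains ran from 0.753% to 7.63% in control (median 2.10%) and from 4.32% to 17.9% in cKO (median 6.23%), against medians of 1.69% and 6.90% over all 8596 CHH regions higher in cKO. The last gain, at 71855600 to 71855769, had 7.63% in control and 17.9% in cKO. The first loss in Alk, at 71877038 to 71877118, had 4.80% in control and 1.1% in cKO, and only 21.3 kb lay between them. A CG region across the 3' end of Alk (71868920 to 71869107, 13 CpGs) went from 61.0% to 37.7%.

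**Figure D4:**
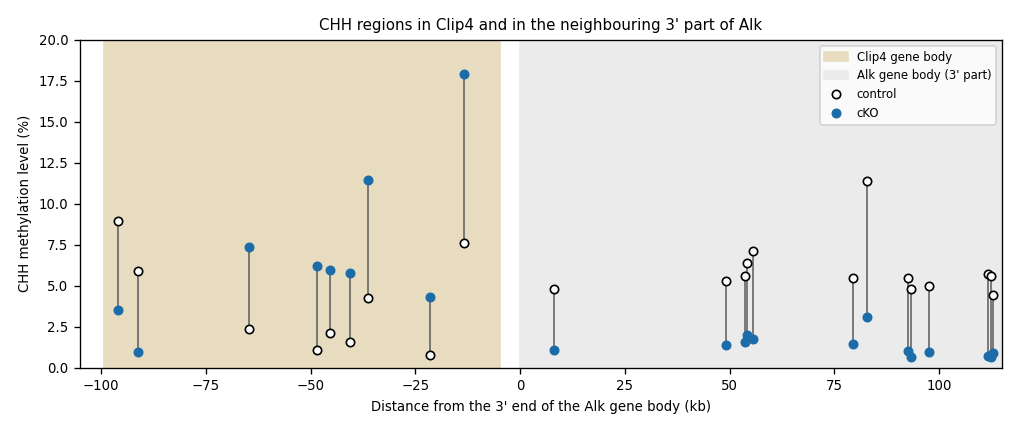
CHH methylation level in percent in control (open circles) and cKO (filled circles) for each listed CHH region of Clip4 and of the 3' part of Alk, against the distance from the 3' end of the Alk body in kb. A line joins the 2 means of a region. In Clip4 the 7 regions nearest to Alk are higher in cKO, and from the first Alk region on all are lower.

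The edges of the CHH losses differed between the genes. On the 3' side of Rbms3 they went on, with 50 CHH regions lower and 0 higher over 500 kb (10 per 100 kb, against 9.74 in the body). CG losses were denser in that stretch than in the body, with 25 (5 per 100 kb, against 1.80). On the 5' side of Rbms3 there were 7 CHH regions lower and 6 higher over 500 kb, 1.40 lower per 100 kb. Alk had 21 CHH regions lower and 0 higher on its 5' side (4.20 per 100 kb), and 7 lower and 12 higher on its 3' side (1.40 per 100 kb). Past the 3' end of Rbms3 the rate of CHH losses thus stayed near that of the body, while on its 5' side and on both sides of Alk it was lower than in the body. The 50 kb bound of the windows is therefore not a border in the data. Just inside it on the 3' side of Rbms3 a CHH region went from 3.67% in control to 0.516% in cKO, and just outside, 2.97 kb beyond, one went from 3.22% to 0.431%. On the 5' side the last region inside had 6.79% and 2.05%, and the next one outside, 69.0 kb beyond, was higher in cKO at 6.27% against 1.70%. At Alk the region just inside on the 3' side had 1.08% in control and 6.23% in cKO. The next one outside, 14.7 kb beyond, had 2.37% and 7.34%. On the 5' side of Alk the last region inside had 6.75% and 2.70%. The next one outside, 77.3 kb beyond, had 2.90% and 0.384%.

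**Figure D5:**
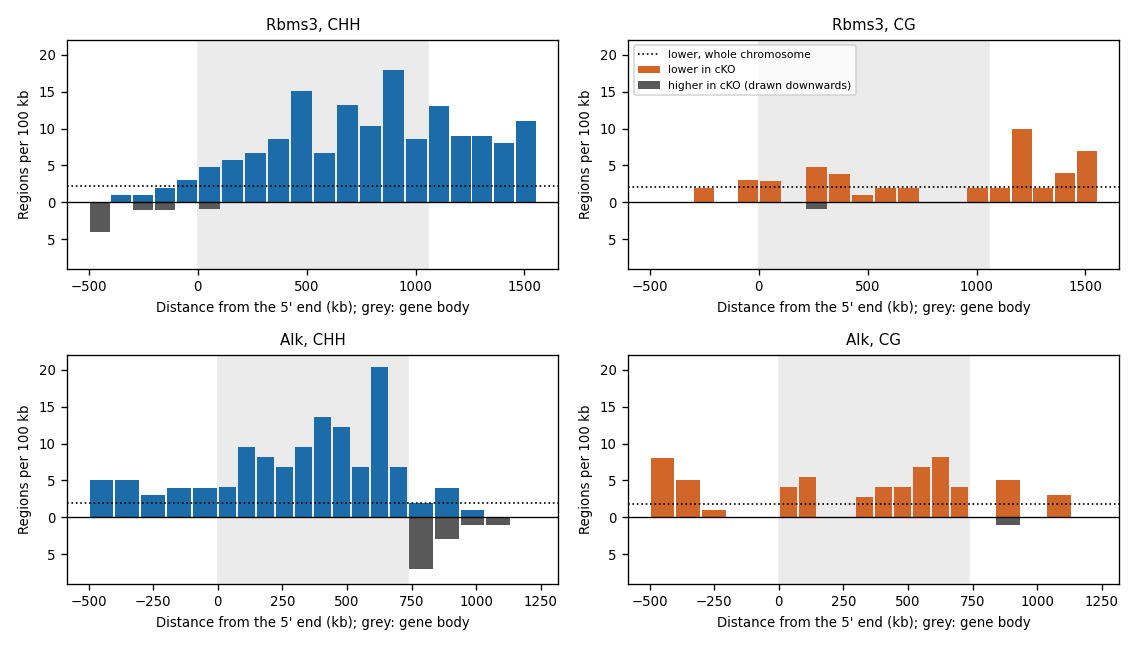
Listed regions per 100 kb in 10 equal bins of each gene body (grey) and in bins of 100 kb over 500 kb on both sides, with regions lower in cKO drawn upwards and those higher in cKO drawn downwards, against the distance from the 5' end in kb; the dotted line is the rate of lower regions over the whole chromosome. CHH losses run past the 3' end of Rbms3, and at Alk they thin out at the 3' end, where regions higher in cKO begin.

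Rbms3 and Alk had fewer CG losses than the 3 other genes with the most CHH losses, but not few among all genes. By the number of CG losses in the body they stood at places 80 and 27 of 21792 protein-coding genes. Genes of at least 200 kb held a median of 0.442 CG losses per 100 kb, against 1.80 in Rbms3 and 3.94 in Alk. Rbms3 had 5.42 CHH losses for each CG loss in its body and Alk 2.48, while Prdm16 had 1.24, Wwox 1.44 and Lrmda 1.16. The median distance from a CHH loss to the nearest CG region was 0.946 kb at Prdm16, 3.35 kb at Wwox and 1.94 kb at Lrmda. By CG losses per length Rbms3 stood at place 244 and Alk at place 108 of 990 protein-coding genes of at least 200 kb, and by CHH losses per length at places 20 and 18. The label of leading CHH genes thus holds for counts and less so for rates, since Rbms3 is the 52nd longest of all protein-coding genes and Alk the 112th. Median levels at the 3 other genes were close, between 5.69% and 6.64% in control and between 1.09% and 1.47% in cKO.

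By the rate of CHH losses the genes most like Rbms3 and Alk were each other and Arhgap24. Likeness was the absolute difference in CHH regions lower in cKO per 100 kb, among 247 genes of at least 200 kb with at least 90% of their CHH regions lower. Arhgap24, a GTPase-activating protein for Rac, had 68 CHH losses in 697.8 kb (9.74 per 100 kb) with 14 CG losses, and so shared the low share of CG losses of Rbms3. Zfp521, a zinc finger transcription factor, had 29 CHH losses (10.1 per 100 kb) and 18 CG losses, and Clybl, a mitochondrial enzyme, 21 (9.08 per 100 kb) and 18. The last of the 5 places went to Wwox for Rbms3 (8.98 per 100 kb) and to Sox6 for Alk (10.5 per 100 kb, 60 CHH and 26 CG losses).

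The relatives of Rbms3 and the partners of Alk held far fewer CHH losses. Rbms3 and Alk were chosen by that count, so a lower count in these genes was largely fixed beforehand. They are also shorter, with Rbms1 (213.7 kb) the longest relative of Rbms3 and Ptprz1 (177.6 kb) the longest partner of Alk. A CHH region lower in cKO lay in 15.2% of all 21792 protein-coding genes and one higher in cKO in 15%. For CG the shares were 18.6% lower and 7.26% higher. Of the other RBMS genes, Rbms1 and Rbms2, 0 of 2 held a CHH loss and both held CHH gains, 2 in Rbms1 (4.26% in control and 11.9% in cKO in the stronger) and 1 in Rbms2 (1.76% and 6.72%). Rbms1 also held 1 CG region lower (85.1% and 53.7%) and 1 higher (31.8% and 50.8%).

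Of 20 genes for ALK ligands, related receptors, adaptors and proteins that signal downstream of ALK or of like receptors, 1 held a CHH loss, 8 a CHH gain, 4 a CG loss and 1 a CG gain. Among the ligands, Alkal1 was the member with a CHH loss (8.05% in control and 1.53% in cKO) and also held a CG loss (81.7% and 50.7%). Alkal2, the other activating ligand, had no region. The growth factors Ptn and Mdk, which have been described as ALK ligands, had 1 CHH gain (1.55% and 6.09%) and none. Ltk, the receptor closest to ALK, had no region, and Ptprz1, a receptor phosphatase that binds pleiotrophin, had 7 CG losses and 1 CHH gain. Its strongest CG loss went from 75.7% to 31.1%. Among the adaptors, Shc3, a neuronal adaptor of receptor kinases, held 6 CHH gains (the strongest from 1.68% to 9.68%) and 2 CHG gains. The adaptors Frs2, Irs1 and Irs2 held 1 CHH gain each, and Grb2 held the CG gain (62.2% and 86.0%). The adaptors Shc1, Shc2, Frs3 and Crkl had no listed region. Of the signalling enzymes, the kinase Jak2 held 1 CHH gain and the kinase Jak3 2 CG losses, and the phospholipase Plcg1 and the phosphatase Ptpn11 had no listed region. The transcription factor Stat3 held 2 CHH gains and 1 CG loss.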

How the data were processed

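Bisulfite sequencing of whole genomes gave DNA methylation for 2 cKO and 2 control libraries. Per the labels' protocols, DNA was sheared, converted with bisulfite and then amplified. CASAVA, Bowtie2 and mm10 are named, per the submitters' processing notes, without versions or roles. For the region caller, its thresholds, its use of replicates and the conversion rate, the sources used here give nothing. The authors deposited group means as a fraction per region, the difference of these fractions, an area statistic, which is a score without fixed range, and a count of cytosines per region. The deposited difference equalled cKO minus control within 1e-09 in all 101350 regions, which are at least 51 bp long and whose CHH differences are at least 2.00 points.

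Regions were assigned to RefSeq gene bodies of GRCm38.p6 by an overlap of at least 1 bp. Genes listed in the first 3 Mb of a chromosome were left out, which left 21792 protein-coding genes. Distances are gaps between nearest edges, 0 for shared bases, computed with Python 3.11.15, pandas 2.3.3 and NumPy 2.4.6. The functions were tested on simulated regions. With group means alone and genes picked on the same contrast, no test was made. The members, the gene lists and the named genes (members, their window neighbours, the lists, the 5 most like genes, and per member the 3 CHH and 3 CG regions of largest area statistic, all gains and all CHG regions) were chosen with earlier results of these data known. The Rbms3 region of largest difference, its nearly emptied CG region, the CG-free stretches, the shared places described and the 500 kb surroundings were chosen after their values were seen. The sequences of the regions were not analysed here.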

Additional observations from a re-analysis of the deposited data

How the results depend on the processing

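Of 56 recomputed values for 10 results under 7 alternative settings, 44 stayed close to the reported ones, 12 moved and 0 changed sign. No change of sign could occur, because counts and distances have no sign and the CHH differences were taken over regions lower in cKO. Counts were taken as close within 1.5 times. Medians were taken as close within the 95% binomial interval of the median over regions, which covers neither animals nor libraries. Window bounds (no flank, 25 kb or 100 kb), whole overlap and centre distances moved none of the results they were run for. Keeping only regions at or above the median absolute area statistic of their context left 63 CHH and 8 CG losses at Rbms3 and 45 and 12 at Alk. It moved the Rbms3 CHH difference to -5.13 points. Since fewer regions remain by construction, the CHH spacing moved to 8.41 kb at Rbms3 and 13.0 kb at Alk. The distance to the nearest CG region moved for the same reason, to 81.3 kb at Rbms3 and 46.7 kb at Alk. Keeping only CHH differences of at least 4 points moved the Rbms3 difference to -5.04 points, since this rule leaves out the smaller differences. It also moved the spacing to 7.98 kb at Rbms3 and 9.81 kb at Alk. Rbms3 had the longer distance to CG under each of the 6 settings run for it. No paired analysis was possible because the table gives group means and no column per library, and for the same reason no library could be left out. Depth is unknown, so the precision of each mean is too.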

Other observations

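Counts here are of whole bodies of protein-coding genes that reach within 500 kb. The CHH losses on the 3' side of Rbms3 reached Tgfbr2, a receptor for TGF-beta 397.4 kb away. It held 7 CHH and 5 CG regions lower in cKO and 0 higher. Gadl1 behind it, a decarboxylase gene, held 12 and 16. It begins 496.6 kb away and is 191.5 kb long, so most of it lies beyond 500 kb. On the 5' side, Zcwpw2 held 1 CHH region lower, Cmc1, a mitochondrial assembly factor, held 5 CHH regions higher in cKO, and Azi2 held none. Cmc1 begins 434.1 kb away and is 86.2 kb long, so its end also lies beyond 500 kb. The 2 sides of the gene thus differed in direction as well as in number, a difference that was not tested.

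Beyond Clip4 on the 3' side of Alk, Togaram2 held 3 CHH regions higher and 1 lower along with 3 CG regions lower and 1 higher. Pcare, a gene named for its role in photoreceptor cilia, had 2 CHH and 2 CG regions lower, and Wdr43 and Spdya had 1 CHH region higher each. On the 5' side of Alk, Ypel5 and Lbh held no listed region, so the 21 CHH losses there lay outside protein-coding genes. These genes were looked at after the values of the surroundings were seen.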
